A study of Mus musculus with 4 samples.

Results

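The genes described here are the 446 gene symbols that the deposited table for tibialis anterior (TA, a fast-twitch muscle of the mouse hindlimb) lists and the deposited table for heart does not. They were found by comparing the symbols of both tables. TA had 10352 listed symbols and heart 10791, with 9906 in both and 11237 in either, so that 4.31% of the TA symbols were absent from the heart table. The symbols were chosen by listing, which depends on the reads of both tissues, so the absence from heart is the choice itself and not a finding, and a gene that is not listed is not a gene at 0.

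Ribosome-protected fragments (RPF), the pieces of mRNA left under ribosomes after nuclease digestion, and total RNA were sequenced from heart and TA of male C57BL/6J mice aged 10 weeks, with no treatment named. Frozen tissue was lysed in the presence of cycloheximide, which holds ribosomes in place; part of the lysate gave the total RNA, freed of ribosomal RNA, and ribosomes of the RNase I-treated remainder were pelleted in an ultracentrifuge with no prior low-speed spin. Each tissue gave 1 RPF and 1 RNA library, and the labels do not say how many animals went into each. No value below has a replicate check, no p-value is given, and the 95% intervals cover counting error only.

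A skeletal muscle fibre and a heart muscle cell build the same machine, the sarcomere, from different members of the same protein families, and they couple the electrical signal to calcium release through different channels. Skeletal muscle also receives a motor nerve at the neuromuscular synapse, forms by fusion of precursors that are switched on by the MyoD family of transcription factors, and keeps a record of its place in the limb in its Hox genes. These 3 themes return among the genes listed for TA only.

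Levels are RPM, reads on a coding sequence scaled to the coding reads of the library, and they grow with the length of the coding sequence. Shares of the library and groups by RPM are thus groups by reads, and levels of different genes are set against each other after division by coding length in kilobases (kb). One RPM was 28.6 reads in TA RPF and 16.1 in TA RNA, against 28.2 and 9.34 in heart, so the heart RNA library was the shallowest. Summed over the 5′UTR, coding sequence and 3′UTR, the lowest listed gene had 21 reads in heart RPF, heart RNA and TA RNA, and 19 in TA RPF. In RPM the lowest listed total of heart RNA was therefore the highest, 2.24 against 1.3 in TA RNA, while the RPF tables began at 0.74 in heart and 0.66 in TA. In total 109 of the 446 genes had a TA level under the lowest level listed for heart, 106 of them in RNA. Of all 415 TA genes that low, 306 were listed for heart nonetheless. The other 337 genes lay at or over that level in both kinds of library, 211 at least 2-fold, 79 at least 10-fold and 16 at least 100-fold over it, with the caution that the tables of the 2 tissues were normalized separately. Just outside the rule, 13 genes were listed for both tissues at the lowest heart RNA total, and their TA totals ran from 1.36 to 38.4 RPM with a median of 2.17. Just inside it, the lowest TA totals among the 446 were 1.3 RPM of RNA and 0.66 of RPF.

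Most of the genes were scarce and a few took a large part of the reads of the muscle. The median was 2.52 RPM of coding RNA and 2.27 of RPF, against 14.2 and 11.1 for genes listed for both tissues. Per kb the medians were 2.08 in RNA and 2.08 in RPF, against 9.81 and 7.58. Nonetheless 114 of the 446 had at least 10 RPM of RNA, 23 at least 100 and 9 at least 1000. Together they took 14.96% of the coding RNA reads of TA (Wilson interval 14.94 to 14.98) and 18.05% of its RPF reads (18.04 to 18.07). A single gene, Myh4, held 67.9% of that RNA and 72.6% of those RPF, and the 5 with the most RNA reads held 92.4% and 92.8%. The share of TA genes that heart did not list fell from 16.2% at 1 to 2 RPM of RNA to 1.81% at 10 to 100 RPM, and at 1000 RPM or more it was 13.04%, 9 of 69 genes. These last 9 were Myh4, Myh1, Ryr1, Actn3, Tpm2, Myoz1, Ampd1, Myh2 and Mylk2, and apart from Ampd1, a muscle enzyme of purine turnover, each encodes a part of the contractile or calcium release machinery or a kinase that acts on it.

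Translational efficiency is log2 of RPF over RNA on the coding sequence, each with 0.1 RPM added, minus its median over TA genes with at least 1 RPM of RNA. It is 0 for the median gene, where RPF was 0.835 of RNA. Of the 446 genes, 369 had at least 1 RPM of RNA, and a gene was called above or below when it lay at least 2-fold from the median gene, that is at 1 or more, or at -1 or less. There were 78 above and 72 below, 21.1% and 19.5% of those measured, against a background of 15.4% above and 18.7% below among all 10029 TA genes with that RNA. Their median efficiency was 0.15 and they ranged from -3.59 in Metrn to 2.80 in Mcpt4. All 78 had their whole counting interval above 0 and all 72 had it below 0, but only 48 and 36 had it wholly beyond the 2-fold line, and for 112 of the 369 the interval held 0.

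**Figure D1:**
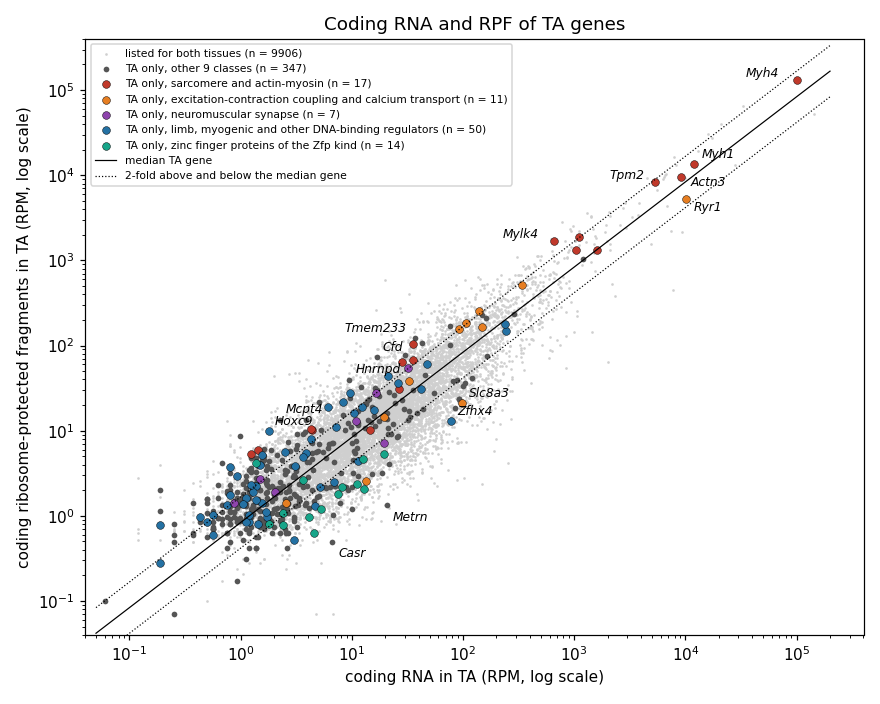
Coding RNA (x, RPM, log scale) against coding RPF (y, RPM, log scale) in TA, 1 point per gene, with the 9906 genes listed for both tissues in grey and the genes listed for TA only in dark grey or, for 5 protein classes, in colour. The solid line is the median gene and the dotted lines are 2-fold from it: Myh4 stands alone at the upper right, most points crowd at the low end, and Metrn and Casr lie far under the lower line.

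Sarcomeric myosin heavy chains are the motor proteins of the thick filament, and each fibre type is defined by the one it makes: Myh4 marks the fastest type 2B fibres, Myh1 type 2X and Myh2 type 2A. All 3 myosin heavy chains that TA listed were absent from the heart table. All 6 that heart listed, led by its alpha motor Myh6, were absent from the TA table. The 6 also included Myh7b, Myh9, Myh10, Myh11 and Myh14, and not all of them are motors of the sarcomere. Myh4 had 101254 RPM of RNA and 130748 of RPF, the second most and the most reads of any TA gene. Per kb it ranked 5 in RNA and 7 in RPF among TA genes. Its efficiency was 0.63 (95% interval 0.63 to 0.63). Myh1 had 11892 RPM of RNA and 13495 of RPF, an efficiency of 0.44. Myh2 had 1110 of RNA and 1859 of RPF, an efficiency of 1.00 (0.98 to 1.03). In RNA per kb the order was therefore Myh4 at 17416, Myh1 at 2042 and Myh2 at 191, each neighbour in that order well apart. The efficiencies ran in another order, with Myh2 highest, Myh4 next and Myh1 lowest, and their intervals did not overlap. In heart Myh6 stood at 10458 RPM per kb of RNA and 15577 of RPF, beside 17416 and 22489 for Myh4 in TA.

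The myosin genes are near copies of each other, which matters for values counted from fragments of about this length. Windows of 28 nucleotides, a typical length of a protected fragment, were taken from the coding sequences of listed genes. They were searched for in whole transcripts of other genes of the reference (GENCODE vM21), UTRs and noncoding transcripts included. Of the 5793 windows of Myh4, 22.2% occurred in Myh1, 19.2% in Myh2, 17.7% in the perinatal Myh8, and 0.93% in Myh6. Myh1 and Myh2 shared 31.4% of their 5802 windows. A total of 869 windows of Myh4, 15.0%, were common to all 3, and a read from such a window cannot be placed. The first of them spans coding bases 236 to 263, and the first stretch whose letters tell the 3 genes apart is the very start of the coding sequence, bases 1 to 28, shown with the 2 positions that vary in capitals.
Common to Myh4, Myh1 and Myh2: ccatgaaccctcccaagtacgacaagat
Myh4: atgagTtccgacgcTgagatggccgttt
Myh1: atgagTtccgacgcCgagatggccgttt
Myh2: atgagCtccgacgcCgagatggccgttt
The sources used here do not give how reads that fit several genes were treated, so the split of reads between Myh1 and Myh2, which stand beside far more abundant copies, is uncertain. With Myh6, the heart motor, hardly any window is shared.

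The sarcomere and actin-myosin class held 17 genes, 13.3% of the coding RNA reads of TA and 16.9% of the RPF reads. None of the 17 was called below and 9 were called above, against 18.7% and 15.4% of all TA genes, and the median efficiency was 1.00. Of the 64 TA-listed genes in a wider list of sarcomere and myofibril proteins, 15 were TA only, 23.4% against 4.31% of all TA symbols. Those 15 had a median efficiency of 0.89 with 7 above and 0 below, and the 49 that heart also listed had a median of 0.81 with 19 above and 4 below, so a high efficiency was not particular to the TA-only genes.

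The thin filament and the Z-disc, where thin filaments are anchored, each had a strongly expressed TA-only gene. Actn3, the alpha-actinin of fast fibres, had 9189 RPM of RNA and 9513 of RPF, an efficiency of 0.31. Per kb its RNA stood at 3407, beside 232 in TA for Actn2, the alpha-actinin of all striated muscle, which heart listed at 948. Tpm2, the beta-tropomyosin that lies along the thin filament, had 5317 RPM of RNA and 8236 of RPF, an efficiency of 0.89, while Tpm1 was listed for both tissues at 18893 RPM per kb of RNA in TA and 12466 in heart. Myoz1, a calcineurin-binding protein of the Z-disc of fast fibres, had 1612 RPM of RNA and 1316 of RPF, an efficiency of -0.03. Its relative Myoz3 had 35.2 of RNA and 103 of RPF, an efficiency of 1.81 (1.68 to 1.95). The slow and cardiac relative Myoz2 was listed for both tissues, at 45.3 RPM per kb of RNA in TA and 1146 in heart. The efficiencies of Myoz1 and Myoz3 thus lay far outside each other's counting interval.

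Kinases of the myosin light chain formed a second family, divided in part. Mylk2, the skeletal muscle kinase, had 1046 RPM of RNA and 1334 of RPF, an efficiency of 0.61. Mylk4 had 664 of RNA but 1708 of RPF, an efficiency of 1.62 (1.59 to 1.65), the highest of any member with over 100 RPM of RNA. Per kb their RNA was alike, 570 and 574, while their RPF was 727 and 1475. The cardiac kinase Mylk3 was listed for heart only, at 435 RPM per kb of RNA and 296 of RPF. Another member, Mylk, was listed for both tissues, at 7.35 RPM per kb of RNA in TA and 9.39 in heart.

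Of the 9 members of the class under 100 RPM of RNA, 7 were above, all but Smtnl1 and Igfn1. Ankrd2, a stretch-responsive ankyrin protein, had 35.5 RPM of RNA and 68.0 of RPF, an efficiency of 1.20. Mybph, the small relative of myosin-binding protein C, had 28.5 of RNA and 64.9 of RPF, an efficiency of 1.44. Tnni1, the inhibitory troponin of slow fibres, had only 1.24 of RNA and 5.32 of RPF, an efficiency of 2.28 (1.68 to 3.11). Per kb its RNA was 2.22, beside 14475 in TA for the fast Tnni2, which both tables listed. Myl4, a light chain of atria and of embryonic muscle, had 4.41 of RNA and 10.1 of RPF in TA. The lowest efficiency of the class was -0.24, in the immunoglobulin-like protein gene Igfn1 with 14.6 of RNA and 10.3 of RPF. Of all TA genes 15.4% were above. Over all genes the median efficiency was highest where RNA was lowest, where listing left out genes of few RPF, as given by level below.

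**Figure D2:**
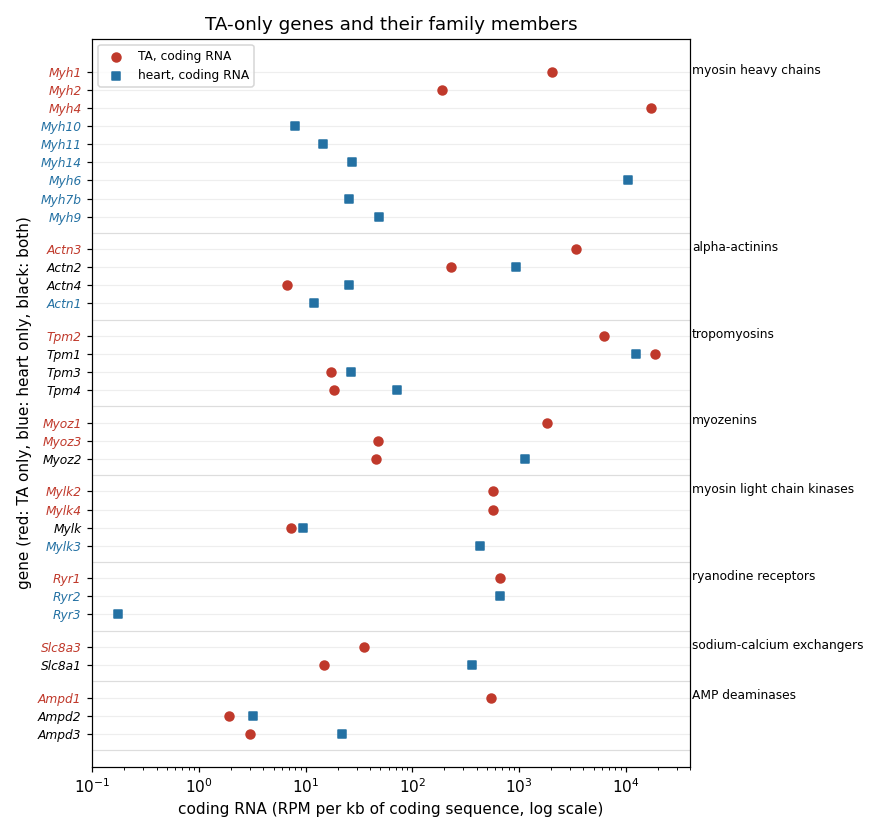
Coding RNA per kb of coding sequence (x, RPM per kb, log scale) of genes in 8 families, with TA as red circles and heart as blue squares. Gene names in red are listed for TA only, in blue for heart only and in black for both; a missing symbol is a gene that the table does not list, not a gene at 0, and the 2 tissues were normalized separately.

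Excitation-contraction coupling is the step from the electrical signal of the membrane to calcium release from the sarcoplasmic reticulum. The class held 11 genes, with a median efficiency of 0.44, 3 above and 2 below, against 15.4% and 18.7% of all TA genes. Ryr1, the calcium release channel of skeletal muscle, had 10124 RPM of RNA and 5234 of RPF, an efficiency of -0.69 (-0.70 to -0.68). Its 15102 bases of coding sequence were by far the longest of the abundant genes here, and per kb it stood at 670 in RNA and 347 in RPF. Ryr2, the release channel of heart, was listed for heart only at 671 per kb in RNA and 266 in RPF. The RNA of the 2 channels per kb, each in its own tissue and on separately normalized tables, therefore lay within 1 RPM per kb of each other.

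The other 10 genes of the class lay on either side of the median gene. Stac3, the adaptor that the skeletal coupling complex needs, had 139 RPM of RNA and 254.7 of RPF, an efficiency of 1.14 (1.07 to 1.21). Cacng1, the gamma subunit of the skeletal calcium channel, had 107 of RNA and 185 of RPF, an efficiency of 1.055, whereas another gamma subunit, Cacng7, had 2.55 and 1.40 (-0.56). Sypl2 (mitsugumin-29), a protein of the triad membranes, had 92.2 of RNA and 155 of RPF, an efficiency of 1.01, its interval of 0.93 to 1.10 spanning the 2-fold line. Jsrp1, a junctional protein of the sarcoplasmic reticulum, had 148 of RNA and 167 of RPF, an efficiency of 0.44. Bin1, which shapes the transverse tubules, had 341 of RNA and 515 of RPF, an efficiency of 0.86. The 2 genes below were Slc8a3, a sodium-calcium exchanger, with 98.9 of RNA and 20.9 of RPF (-1.98), and Cacna2d4, a calcium channel subunit, with 13.5 of RNA and 2.59 of RPF (-2.08, interval -2.53 to -1.74). The main cardiac exchanger, Slc8a1, was listed for both tissues, at 14.9 RPM per kb of RNA in TA against 35.6 for Slc8a3.

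The neuromuscular synapse is where the motor nerve releases acetylcholine onto the fibre, and its parts are made by the few nuclei beneath the nerve ending. The 7 genes were scarce, 0.87 to 32.2 RPM of RNA. Ache, the esterase that clears acetylcholine, had 32.2 of RNA and 54.3 of RPF, an efficiency of 1.01 (0.87 to 1.16). Chrne, the receptor subunit of adult synapses, had 16.6 of RNA and 27.8 of RPF (1.00), Chrna1, the subunit that binds acetylcholine, 10.9 and 13.1 (0.52), and Chrnd 2.05 and 1.89 (0.15). The beta subunit Chrnb1 was listed for both tissues, at 15.0 RPM per kb of RNA in TA and 3.49 in heart. Musk, the receptor kinase that organises the synapse, had 19.6 of RNA and only 7.07 of RPF, an efficiency of -1.20 (-1.48 to -0.95). Prima1, the membrane anchor of the esterase, had 1.49 and 2.69. The other organisers Agrn, Lrp4, Dok7 and Rapsn were listed for both tissues. In this hand-made class 3 genes were above, at 1.00 to 1.07, and 1 was below, of 6 measured, against 15.4% and 18.7% of all TA genes. In a wider neuromuscular junction list, 8 of 29 TA-listed genes were TA only, 27.6% against 4.31% of all TA symbols. Of these, 7 were measured, with 2 above, 2 below and a median of 0.15. The 21 listed for both had a median of -0.29.

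Promoters of the synapse genes were searched because this class is expressed as a unit in a small part of the fibre. The RefSeq promoter table (GRCm38.p6, 250 bases before to 50 after a start site) matched 335 of the 446 genes, with 424 windows. The E-box CAGCTG, a core bound by the MyoD family, was searched on both strands (it reads the same on each) and occurred in 19.3% of the windows of TA-only genes, 15.4% of those of genes listed for both and 16.3% of all windows in the table. In the synapse class it was in 5 of 6 windows and in the sarcomere and coupling classes in 6 of 15 and 2 of 5. Other classes were not all low: the solute carriers had it in 4 of 11, the uncharacterised genes in 14 of 49, the signalling genes in 12 of 45 and the ubiquitin adaptors in 3 of 13. The metabolic enzymes had it in 11 of 52, the receptors in 11 of 61, the DNA-binding regulators in 5 of 36, the RNA and chromatin class in 4 of 38, the channels in 2 of 21, the secreted class in 3 of 58 and the zinc finger class in 0 of 14. The letters CCGGAA are the core of a synaptic element and also of many housekeeping promoters. They were in 16.3% of the windows of TA-only genes, 27.8% of those of genes listed for both and 14.9% of all windows. In the synapse class they were in 1 of 6 windows. Matches in 4 synapse genes and in Myh4 are shown with the motif in capitals, 5′ to 3′ on the strand of the gene.
Chrna1, nearer match, chr2:73580367-73580392, minus strand: gctgtggagtCAGCTGgcttccaagg
Chrna1, farther match, chr2:73580415-73580440, minus strand: gtgggcagctCAGCTGtcatgcgggc
Chrne, chr11:70619317-70619342, minus strand: caggatggggCAGCTGcctcccccac
Chrne, second motif, chr11:70619255-70619280, minus strand: caaacctagcCCGGAActaacaccct
Musk, chr4:58285884-58285909, plus strand: gagttctcccCAGCTGgccacgtcca
Prima1, chr12:103242313-103242338, minus strand: tctcccagatCAGCTGccctggaggc
Myh4, chr11:67237735-67237760, plus strand: gcagctaggaCAGCTGaggtggctgc
The first bases of the E-boxes lay 44 and 92 bases before the start site in Chrna1, 138 in Chrne, 68 in Musk, 182 in Prima1 and 67 in Myh4, and the CCGGAA of Chrne lay 76 before it. These are matches of letters in short windows and not measured binding sites.

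Of the 52 TA-listed genes in a list of myogenic, limb and homeobox transcription factors, 30 were TA only and 22 were listed for both. The share, 57.7% against 4.31% of all TA symbols, was the highest among the 14 gene lists examined. The 30 genes were scarce, with a median of 3.07 RPM of RNA. Of all TA genes 16.2% were TA only at 1 to 2 RPM and 6.26% at 2 to 5 RPM. All 4 members of the MyoD family were TA only. Myf6 (MRF4), the family member of mature fibres, led with 47.3 RPM of RNA and 60.5 of RPF, an efficiency of 0.61 (0.49 to 0.74). Myod1 had 7.14 and 10.9 (0.87), Myog, which drives fusion, 1.37 and 2.27 (0.95), and Myf5, which acts first in precursors, 1.06 and 1.36 (0.59). Their order in RNA per kb was Myf6 at 65.4, Myod1 at 7.51, Myog at 2.05 and Myf5 at 1.39, the last pair counted from few reads, and their efficiencies had overlapping intervals.

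All 10 Hox genes listed for TA were absent from the heart table. They came from the HoxA and HoxC clusters, which pattern the limb and the body axis. Hoxc10 was the most abundant, with 21.1 RPM of RNA and 44.5 of RPF, an efficiency of 1.33 (1.16 to 1.51). The other 9 had 0.5 to 4.29 RPM of RNA. Hoxc9 had 1.80 of RNA but 9.90 of RPF, an efficiency of 2.66 (2.17 to 3.32), the highest of the class. Of the 8 Hox genes with enough RNA, 5 were above and 0 below, with a median of 1.13, against 15.4% above over all TA genes and 28.3% of the genes listed for both at 1 to 2 RPM of RNA. The 17 measured genes of the wider factor list that both tables held had 9 above and a median of 1.38, so this was not particular to the Hox genes or to listing for TA only. Some of the genes lie next to each other on the chromosome: 35 of the 440 genes matched to RefSeq fell into 16 runs of neighbouring protein-coding genes, among them Myh2, Myh1 and Myh4, Hoxc11, Hoxc10 and Hoxc9, Hoxa7 and Hoxa9, Hoxa11 and Hoxa13, and Myf5 and Myf6.

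The rest of the 50 DNA-binding regulators spread widely. Tbx15, a T-box factor of fast fibres, was the most abundant with 241 RPM of RNA and 146 of RPF, an efficiency of -0.46. Stat5b, which carries growth hormone signals, had 239 and 181 (-0.14), and 37.8% of its coding windows occur in another gene. Vgll2, a skeletal muscle cofactor, had 9.63 and 27.4, an efficiency of 1.76. At the other end Zfhx4, a giant zinc finger homeobox protein, had 78.6 of RNA and 12.9 of RPF, an efficiency of -2.34 (-2.52 to -2.18). Dach2, a nuclear regulator of the muscle response to nerve loss, had 4.66 and 1.29 (-1.52). Apart from the Hox and MyoD families, 28 were measured, with 5 above, 5 below and a median of 0.28. With those families it was 10 above and 5 below of 40, with a median of 0.60, against 15.4% above and 18.7% below of all TA genes.

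Zinc finger proteins of the Zfp kind, mostly repressors of a very large mammalian family, were the class with the lowest efficiency. All 14 had 1.37 to 19.4 RPM of RNA, 10 were below, 1 was above and the median was -1.59. Zfp866 had 19.4 RPM of RNA and 5.35 of RPF, an efficiency of -1.58. AA987161 had 12.9 and 2.06 (-2.32), though 68.7% of its windows occur in another gene. The gene above was Zfp707, with 1.37 and 4.16 (1.80). Zfp503, of the same name series but sorted by hand with the other regulators, had 8.26 and 21.8 (1.65), and with it 2 of 15 were above and 10 below. Among the 207 Zfp genes listed for both tissues the same direction was seen, with 101 below, 48.8%, 4 above and a median of -0.95, so the low efficiency was not particular to the TA-only genes.

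**Figure D3:**
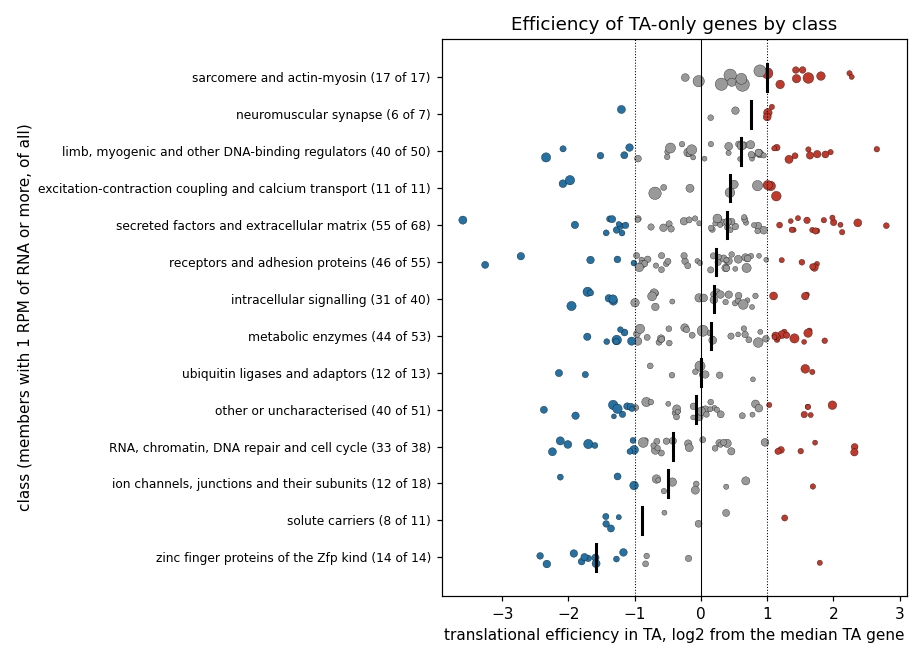
Translational efficiency in TA (x, log2 from the median TA gene) of the 369 TA-only genes with at least 1 RPM of RNA, by protein class (y), where each point is a gene and larger points have more RNA. Black bars are class medians, from 1.00 in the sarcomere class to -1.59 in the Zfp class; red and blue points lie at least 2-fold above and below the median gene, marked by dotted lines.

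The 53 metabolic enzymes had a median efficiency of 0.16, with 12 above and 7 below of 44 measured, against 15.4% and 18.7% of all TA genes. Ampd1, the muscle AMP deaminase, had 1210 RPM of RNA and 1030 of RPF, an efficiency of 0.03 (0.00 to 0.05), while its relatives Ampd2 and Ampd3 were listed for both tissues at 1.92 and 3.002 RPM per kb of RNA in TA against 542 for Ampd1. Nos1, the neuronal nitric oxide synthase that sits at the fibre membrane, had 121 of RNA and 41.8 of RPF, an efficiency of -1.27 (-1.38 to -1.17). Padi2, a peptidylarginine deiminase, had 76.6 of RNA and 170 of RPF (1.41). Scd1, a fatty acid desaturase, had 30.3 and 77.8 (1.62). Gstp1, a glutathione transferase, had 149 and 227 (0.87), but 78.7% of its windows occur in another gene. In a list of 58 TA-listed genes of glycolysis, glycogen and energy metabolism 6 were TA only, 10.3% against 4.31% of all TA symbols. They were Ampd1, Agbl1, Scd1, Ppp1r27, Ppp1r1a and Car9, none of them a glycolytic enzyme, so the share does not speak for glycolysis.

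Secreted factors and extracellular matrix made the largest class, 68 genes, with 22 of them under the lowest level listed for heart. Of 55 measured, 16 were above and 10 below, against 15.4% and 18.7% of all TA genes, and the median was 0.40. The class was scarce, with a median of 1.74 RPM of RNA. At 1 to 2 RPM 28.3% of the genes listed for both were above. Mstn (myostatin), the hormone by which muscle limits its own mass, was the most abundant, with 45.1 RPM of RNA and 44.7 of RPF, an efficiency of 0.25 (0.12 to 0.38). Its antagonist Fst (follistatin) had 1.49 and 4.16 (1.68), and the related Gdf11 1.30 and 1.26 (0.22). Metrn (meteorin), a secreted neurotrophic factor, had 20.6 RPM of RNA but 1.33 of RPF, an efficiency of -3.59 (-4.21 to -3.20), the lowest of all 369. Cfd (adipsin), a complement protease of fat cells, lay at the other end among genes with 5 RPM or more, with 16.8 of RNA and 72.7 of RPF, an efficiency of 2.37 (2.19 to 2.56). Bmp5, a growth factor of the BMP family, had 10.99 and 7.66 (-0.26), and Wnt4 7.08 and 2.27 (-1.34). Of the 7 collagens 6 were measured, with a median of -0.52 and 2 below: Col24a1 (9.25 and 1.99, -1.90) and Col9a1 (4.84 and 1.68, -1.21). Col22a1, a collagen of the muscle-tendon junction, had 11.1 and 12.2 (0.40), and Tnmd (tenomodulin), a tendon protein, 1.61 and 6.16 (2.13).

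Receptors and adhesion proteins were near the median gene as a class, 0.22 over 46 measured of 55. There were 5 above and 5 below, against 15.4% and 18.7% of all TA genes. The 2 lowest were far from it. Casr, the calcium-sensing receptor, had 6.65 RPM of RNA and 0.49 of RPF, an efficiency of -3.26 (-4.42 to -2.69). Fat3, a giant cadherin, had 10.1 and 1.19 (-2.72). Cntfr, the receptor for ciliary neurotrophic factor, had 9.32 and 12.5 (0.67), and its ligand Cntf was TA only as well, with 2.24 of RNA, although every 28-base window of the listed Cntf coding sequence also occurs in another annotated gene. Cdh15 (M-cadherin), the adhesion protein of muscle precursors, had 15.2 and 18.8 (0.56).

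The 18 channel and junction genes had a median of -0.49 with 1 above and 3 below of 12 measured, and the 11 solute carriers a median of -0.89 with 1 above and 4 below of 8, against 15.4% above and 18.7% below of all TA genes. Both medians depended on the RNA minimum: with none they were -0.01 and -0.07, and with 5 RPM they were -0.47 and 0.04. Kcnma1, the large-conductance calcium-activated potassium channel, led with 38.6 RPM of RNA and 16.0 of RPF, an efficiency of -1.01 (-1.19 to -0.84). Kcng4, Kcnc1 and Kcnq5, 3 further voltage-gated potassium channel subunits, had 32.4, 29.2 and 20.6 of RNA and efficiencies of -0.67, -0.43 and -0.08. Lrrc38, an auxiliary subunit of the Kcnma1 channel, had 21.6 and 28.8 (0.68). Panx1, a large-pore membrane channel, had 6.4 and 2.17 (-1.26).

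Signalling proteins and ubiquitin adaptors showed both directions. Of 40 signalling genes, 31 were measured, with 3 above, 6 below and a median of 0.19, against 15.4% above and 18.7% below of all TA genes. Plcd4, a phospholipase C, had 161 RPM of RNA and 210 of RPF (0.64), whereas the adenylate cyclase Adcy2 had 91.5 and 23.3 (-1.71) and the calcium-binding Cib2 85.0 and 18.3 (-1.95). Of the 13 ubiquitin ligases and adaptors, 12 were measured, with 2 above and 2 below, near those shares. Fem1a, an adaptor of cullin ligases, had 287 of RNA and 237 of RPF (-0.01), and Asb16, of the SOCS-box family, 42.4 and 106 (1.58, interval 1.46 to 1.70). Peli2, a ligase of immune receptor signalling, had 7.83 and 1.40 (-2.14).

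Some of the genes are known to be made by nearly every cell. Rpl32 was the only one of the 67 cytosolic ribosomal proteins listed for TA that heart did not list, with 164 RPM of RNA and 74.6 of RPF (-0.87), and 78.5% of its windows occur in another gene. Dicer1, the nuclease that makes microRNAs, had 92.9 and 23.8 (-1.70), while its partners Drosha, Dgcr8, Tarbp2 and Eif2c2 were listed for both tissues. Ywhaq, a 14-3-3 protein, had 16.8 and 30.2 (1.10) with every window shared, and the other 5 listed 14-3-3 genes were in both tables. Hnrnpd, an RNA-binding protein that controls mRNA decay, had 9.50 and 39.8, an efficiency of 2.32 (2.08 to 2.58), the histone gene Hist3h2a 5.09 and 21.6 (2.32) with every window shared, and the transcription factor Gtf3a 21.7 and 4.09 (-2.12). The sources used here do not give why these are off the heart table, and the part of shared windows in it was not tested. Over all genes, at least 50% of the windows were shared in 16 of 439 TA-only genes, 3.64%, against 7.21% of genes listed for both. These shares describe the whole set and do not speak for the genes named in this paragraph.

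Markers of other cell types were also present at low levels, where the TA-only share of all genes was itself high, 23.8% under 1 RPM of RNA and 16.2% at 1 to 2 RPM, against 4.31% overall. In a bulk tissue fewer cells of a type and less RNA per cell cannot be told apart. Of a list of peripheral nerve and Schwann cell genes, 24 were listed for TA and 9 of these were TA only, among them the glial factor Sox10 with 0.93 RPM of RNA and 2.97 of RPF. Of 17 TA-listed fat cell genes, 5 were TA only: Scd1, Cfd, Adipoq (adiponectin, 4.97 and 5.74), Plin1 (perilipin, 3.23 and 6.72) and Cidec (2.48 and 3.46), 57.8 RPM of RNA and 166 of RPF in sum. Of 25 satellite cell and developmental muscle genes 8 were TA only, with Pax7, the marker of muscle stem cells, at 1.30 and 1.92. Of 21 leukocyte genes only the mast cell proteases Mcpt4 and Tpsb2 were TA only, and Mcpt4, with 2.24 of RNA and 13.5 of RPF, had the highest efficiency of the 369 at 2.80 (2.36 to 3.39). Of 34 TA-listed genes of cartilage, tendon, bone and skin, 12 were TA only. None of the 9 TA-listed genes of a heart muscle list was TA only, too few genes to read against 4.31%, and 15 further ones were in the heart table only.

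**Figure D4:**
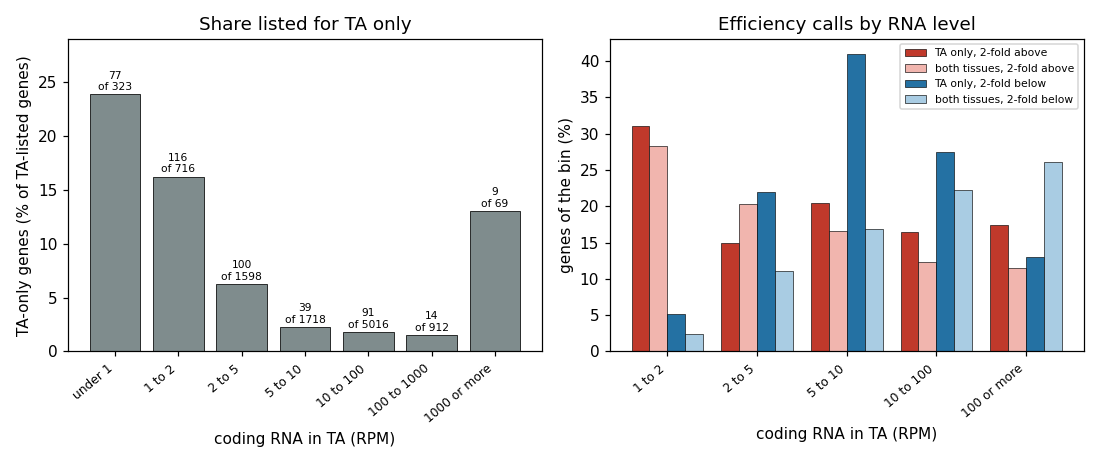
Left: genes listed for TA only as a percentage of all TA-listed genes, by coding RNA in TA (RPM), with the counts above each bar. Right: percentage of genes at least 2-fold above (red) or below (blue) the median gene in efficiency, by coding RNA, for TA-only genes (dark) and genes listed for both tissues (pale); at 5 to 10 RPM 41.0% of the TA-only genes were below, against 16.9% of the others.

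The efficiency of these genes differed with their level, and so did the comparison with the rest. Listing itself sets part of this. No listed TA gene had under 19 RPF reads, 0.66 RPM, over the 3 parts. Scarce genes with few RPF are thus missing, which limits calls below at low RNA. At 1 to 2 RPM of RNA the median efficiency was 0.49 for 116 TA-only genes and 0.53 for 600 genes listed for both. Only 5.17% and 2.33% of them were below. At 2 to 5 RPM it was -0.19 against 0.12, and at 5 to 10 RPM -0.19 against 0.07. In these bins 22% and 41.0% of the TA-only genes were below, against 11.1% and 16.9% of the others. At 10 to 100 RPM the medians were -0.16 and -0.11. At 100 RPM or more the order turned, with 0.44 for the 23 TA-only genes, 13 of them of the sarcomere and coupling classes, and -0.17 for 958 others. Efficiency also fell with coding length, from a median of 0.59 among 32 TA-only genes under 600 bases to -0.16 among 73 of 2400 bases or more. Genes listed for both went from 0.59 to -0.52 over the same range. In the shortest bin 11 of the 32 were above, against 34.2% of genes listed for both. In the longest it was 6 of the 73, against 4.27%. The median coding length was 1269 bases for the 446 genes and 1425 for the rest.

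Reads outside the coding sequence were examined in the 151 genes with at least 100 reads in each TA library. At least 10% of the RPF lay on the 5′UTR, upstream of the main start codon, in 23 of them, 15.2% against 14.1% of genes listed for both. Those 23 had a median efficiency of -0.67 with 7 below and 2 above, and the other 125 with enough RNA a median of 0.42 with 18 below. Genes listed for both showed the same order, with medians of -0.53 and 0.13 and with 32.9% and 14.2% below. Few RPF on the coding sequence raise the 5′UTR share and lower the efficiency at once, so part of this order is built in. Ctxn3 (cortexin 3), a small membrane protein, had 74.8% of its RPF on the 5′UTR against 21.4% of its RNA, with an efficiency of -2.37 on the coding sequence. Srgap2, a GTPase-activating protein, had 61.2% against 9.97%, Shisa2 56.9% against 10.2%, Zfp946 55.1% against 15.9%, and the bHLH factor Sim1 52.6% against 3.89%. In none of the 13 sarcomere genes examined did the share reach 10%, and their median was 0.05%. In Myh4 it was 0.04%.

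On the 3′UTR at least 10% of the RPF were found in 13 of the 151 genes, 8.61%, against 2.57% of genes listed for both. Prx (periaxin), a Schwann cell protein, had 74.1% of its RPF and 84.9% of its RNA there, and was listed with a coding sequence of 441 bases and a 3′UTR of 4528, the short one of the known forms of this gene. Dkk2, a Wnt inhibitor, had 60.3% of RPF and 65.3% of RNA on the 3′UTR, Cldn1, a tight junction protein, 53.8% and 84.2%, Zfp866 36.2% and 65.7%, and Mlst8, a subunit of the mTOR complexes, 26.5% and 55.2%. Myoz3 had 87.5% of its RNA on the 3′UTR and 1.60% of its RPF there, so its ribosomes lay on the coding sequence and most of its RNA reads did not.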

How the data were processed

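RPF and total RNA were measured in 1 library each for heart and TA. The deposited values are RPM per gene for coding sequence and UTRs, per the file headers. Bowtie and mm9 come from the submitters' processing notes, and the sources used here do not give trimming, versions, the handling of multiply mapping reads or the listing rule. Low values were whole multiples of 1 read in 100% of cases, which gave the depths: 28521700 coding reads for TA RPF, 16050100 for TA RNA, 28122700 for heart RPF and 9286360 for heart RNA. Symbols on several rows took the highest row. Intervals are conditional Clopper-Pearson for ratios and Wilson for shares. With 1 library per group there are no residual degrees of freedom, so no count test could be fitted. The members and the 14 lists were chosen with earlier results of these data known, and the 14 protein classes were made by hand from symbols and descriptions after values were seen. Genes were named by a rule (myosin heavy chains, the 20 highest in RNA and in RPF, the 10 highest and lowest efficiencies at 5 RPM or more, leading genes of each list, the 5 highest UTR shares); others were chosen after their values were seen. Listed coding lengths were 6 bases shorter than in GENCODE vM21 in 99.1% of 10275 matched genes; that reference is of another build than mm9 and gave sequence only. Python 3.11.15, numpy 2.4.6, pandas 2.3.3 and scipy 1.17.1 were used, and the efficiency computation was tested on simulated data. Some genes that the naming rule picks are not reported here.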

Additional observations from a re-analysis of the deposited data

How the results depend on the processing

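The median efficiency of the TA-only genes stayed between 0.01 and 0.27 under the alternatives that kept a centring, and was -0.11 without centring, which moves every gene by -0.26. With a pseudocount of 1 the genes below numbered 42 of 369 instead of 72, against 15.9% of all TA genes. Those above numbered 61, against 12.9% of all TA genes. With a minimum of 5 RPM of RNA, 29 were above and 39 below of the 153 genes left, 18.95% and 25.49% against 14.8% and 19.9% of all TA genes, so that the larger share turned from above to below, and the median of the receptors and adhesion proteins was 0.44. Scaled without the 50 most abundant genes, the median coding RNA was 5.92 RPM and the median RPF 5.59. Over members with at least 1 RPM of RNA these medians were 3.35 and 3.22, and per kilobase the median RNA was 2.08. Leaving out 5 genes that share an alias with a heart-listed gene gave 441 genes and an efficiency of 0.15, and ignoring case gave 446. Chosen after seeing the data, the 337 genes at or over the lowest heart level gave 58 above and 71 below. The 393 genes with under 10% shared windows gave 70 and 63. Both counts are of genes with at least 1 RPM of RNA, where 15.4% of all TA genes were above and 18.7% below. No named gene, class median or list median beyond the 2-fold line changed sign under the alternatives run for it, but of the medians nearer to 0, those of 6 of 14 classes and 2 of 10 lists did under at least 1: with the 5 RPM minimum the signalling genes went to -0.61, the metabolic enzymes to -0.34 and the solute carriers to 0.04, and with no minimum the neuromuscular junction list went to -0.22. The sarcomere class median, 1.00, lay at the 2-fold line. It ran from 0.71 with the 5 RPM minimum to 1.31 over genes with under 10% shared windows, and was 0.97 with a pseudocount of 1. Removing the trend with coding length moved 56 of 100 named genes beyond their counting interval, and 122 of the 150 calls remained. Scarce genes limit the precision: at 1 to 2 RPM of RNA a value rests on few reads. No paired analysis was possible because each group had 1 library.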
